A study of Mus musculus with 20 samples.

Results

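The Hox genes of the mouse lie in 4 clusters, HoxA on chromosome 6, HoxB on chromosome 11, HoxC on chromosome 15 and HoxD on chromosome 2, and are described here by the open chromatin listed across them. The members were the protein-coding genes of the GENCODE M21 annotation whose symbol is Hoxa, Hoxb, Hoxc or Hoxd followed by a number. Of 39 genes that fit this pattern, 38 were taken as members and 1 was not analysed here. They stand among 21938 protein-coding genes. HoxA and HoxB each held 10 members, and HoxC and HoxD each held 9. Of the 102373 peaks in the list, 111 lay inside the clusters, measured from the outer end of the first member to that of the last, 103 lay at a member or within 5000 bp of it, and 178 were reached when 100 kb was added on each side of every cluster.

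Chromatin accessibility was profiled by ATAC-seq, in which a transposase cuts and tags open DNA, in 20 libraries of ZHBTc4 cells. This mouse embryonic stem (ES) cell line expresses untagged OCT4 from a Tet-Off promoter, which doxycycline (dox) shuts off. All cells carried lentiviral YPet-MD together with a SNAP-tagged OCT4 that was fused to a degron active in mitosis (MD-OCT4) or to its inactive mutant (MD*-OCT4), both driven by the PGK promoter, and were grown in serum with LIF, CHIR99021 and PD184352. For each construct, dox was given at 1 µg/ml for 40 h and cells of early G1, of late G1, of S phase and of late S/G2 were collected apart, which gave 8 groups of 2 replicates, and 4 further libraries, 2 for each construct, came from unsorted cells without dox. The study asked what loss of OCT4 at the exit from mitosis does to accessibility, but the list analysed here gives only the position of each peak after the peaks of the 16 dox libraries were merged, so no construct, phase or replicate could be compared at the Hox genes.

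Hox genes encode homeodomain transcription factors that give cells their identity along the head to tail axis of the embryo. Within a cluster the genes lie in the order in which they are used: members with low numbers pattern anterior structures such as the hindbrain, and members with high numbers pattern the posterior trunk, the limbs and the genital region. Genes of the same number in different clusters are paralogues, which descend from the same gene of an ancestral cluster. In ES cells the clusters are known as Polycomb-covered and largely silent regions rich in CpG, which retinoic acid opens from the anterior end, and CTCF bound between Hox genes is known to separate active from silent parts of a cluster.

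Among the regulatory sequences that recur across the clusters are the retinoic acid direct repeats, in which the receptor binds a pair of hexamers in the same orientation. The hexamer AGGTCA was searched, and so were its variant AGTTCA and, among forms that open with G, the hexamer GGGTCA as well as GGTTCA, in pairs 5, 2 or 1 bases apart on both strands. The clusters held 8 such repeats, 5 in HoxB, 2 in HoxA, 1 in HoxD and none in HoxC. Peaks covered 15% of the bases of the clusters, and 1 of the 8 repeats lay inside a listed peak. The closest relative of that repeat in each of the other clusters, or for HoxC in a flank, is printed below it. Sequences are in lower case with the hexamers in capitals and 8 bases of GRCm38 sequence on each side.
HoxA, chr6:52175533-52175549, minus strand, in a peak: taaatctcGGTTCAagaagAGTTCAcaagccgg
HoxB, chr11:96341236-96341252, plus strand, outside peaks: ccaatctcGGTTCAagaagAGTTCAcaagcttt
HoxD, chr2:74741540-74741556, plus strand, outside peaks: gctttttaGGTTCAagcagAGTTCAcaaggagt
HoxC right flank, chr15:103061714-103061730, plus strand, in a peak: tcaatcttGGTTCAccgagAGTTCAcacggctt

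All 17 bases of the HoxA repeat recurred in HoxB, and with the printed flanking bases 28 of 33 were identical. Counting from 1 at the 5′ end of the first hexamer and giving the HoxA base first, the HoxD repeat differed from it by A9C alone, so that 16 of 17 bases were shared. The HoxC repeat, which lay 27319 bp from the start of Hoxc4 and outside the cluster, differed by A7C, G8C and A9G, all 3 within the spacer. The 4 printed repeats thus had the same hexamers in the same order and differed only between them. The same hexamers also stood in a right HoxB flank repeat, which shared 14 of 17 bases, and in a left HoxA flank repeat, which shared 13. These unprinted repeats lay outside peaks, 5705 bp and 4656 bp from the nearest. The positions of the printed repeats relative to the peaks differed. The HoxA repeat lay inside a 335 bp peak (chr6:52175382-52175716) in an intron of the long Hoxa3 transcripts and of the antisense gene Hoxaas3, and the HoxC repeat lay inside a 1314 bp peak (chr15:103060430-103061743). The identical HoxB repeat, inside Hoxb3, had its centre 86 bp from the nearest peak, and the HoxD repeat, inside Hoxd3, was 666 bp from one. A second HoxB repeat, also in Hoxb3, was 196 bp from a peak, and the second HoxA repeat, at Hoxa10, was 31 bp from one. In the 100 kb flanks, where peaks covered 4.81% of the bases, 3 of 31 repeats lay in peaks. A repeat was found in 1 of the 111 cluster peaks (0.901%, 95% Wilson interval 0.159 to 4.93%), beside 1.26% of all peaks in the list, which lies inside that interval. With the hexamer AGGTCA and its variant AGTTCA alone, none of the cluster repeats in peaks was left.

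CTCF, the insulator protein, was searched as its 14-base consensus with up to 1 mismatch on both strands. A match was found in 8 cluster peaks, 4 in HoxA, 2 in HoxB, 1 in HoxC and 1 in HoxD. They are matches of letters, and binding of CTCF was not measured in the list. They are printed on the strand of the match, the matched bases in capitals, to show where they lie and which way they point.
HoxA at Hoxa5, chr6:52204657-52204670, minus strand: cccagtctCCAGCGGGTGGCGCtcgagtcc
HoxA at Hoxa7, chr6:52221807-52221820, minus strand: agaaaattCCAGGAGATGGCAGtgtggctc
HoxA at Hoxa10, chr6:52240539-52240552, minus strand: cgcagccgCCACGAGATGGCGCactcccga
HoxA at Hoxa11, chr6:52245495-52245508, minus strand: tgagcccgCCACTAAATGGCACccccgcgg
HoxB between Hoxb13 and Hoxb9, chr11:96224005-96224018, minus strand: cacagaggCCAGAAGAGGGCGCcattttta
HoxB at Hoxb3, chr11:96346193-96346206, minus strand: gggaggggCCGGCAGGGGGCGGcagcggat
HoxC at Hoxc11, chr15:102955205-102955218, plus strand: agccgcccCCAGTAGGTAGCAGcggccggg
HoxD at Hoxd3, chr2:74736641-74736654, minus strand: agtgggcgCCAGTGGGGGGCAGagctagcc

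The 4 HoxA matches lay at promoters of central and posterior members and all pointed in the direction in which the HoxA genes are transcribed. The first stood 70 bp from the start of Hoxa5, and the match at Hoxa11 stood 315 bp from its start. The matches at Hoxa7 and Hoxa10 lay in the peaks at the outermost 5′ ends of these genes, which are centred on untranslated exons. In HoxB and HoxD, whose members are on the plus strand, the 3 matches pointed against transcription, whereas the match in HoxC pointed along it. The share of cluster peaks with a match was 7.21% (Wilson interval 3.70 to 13.6%), beside 13% of all peaks, which lies inside that interval. With up to 2 mismatches it was 31.5% (23.6 to 40.7%), beside 32.6% of all peaks, again inside the interval. Without a mismatch 0 of 111 cluster peaks held a match, which allows a share of up to 2.70%, beside 3.67% of all peaks. These shares are per peak, and cluster peaks had a median width of 614 bp beside 415 bp and a median GC of 58.8% beside 50.1%. Unequal lengths and compositions of sequence are thus set side by side, for the repeats and the octamer as well. Most cluster peaks (69.4%) stood within 1000 bp of an annotated start. Of all peaks that near a start, 11% held a match, 42.8% with up to 2 mismatches and 2.27% without a mismatch. Of the 77 cluster peaks near a start, 7.79% held a match, 29.9% with up to 2 mismatches and 0% without a mismatch. No interval was taken for these 77, which had a median width of 658 bp beside 815 bp. Against all 111 cluster peaks, the 11% lies inside their interval and the 2.27% below the limit of 2.70%. The 42.8% lies above their interval of 23.6 to 40.7%, which includes peaks away from starts.

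Strict forms of the sequences known to be bound by OCT4, an exact octamer and a consensus string, were found in few peaks, in the clusters as in the whole list. The study searched for motifs by another method, so its counts cannot be set beside these. The octamer ATGCAAAT occurred in 1 cluster peak (0.901%, 0.159 to 4.93%), beside 2.56% of all peaks, which lies inside that interval. It lay in the 711 bp peak at the outer 5′ end of Hoxa10 that also held a CTCF match (chr6:52240726-52240733, plus strand, ttccaaatATGCAAATtggccggc). The OCT4::SOX2 consensus with up to 2 mismatches was found in 0 of 111 cluster peaks, which allows up to 2.70%, and in 0.677% of all peaks. The share in the whole list is below that limit, so a difference could not be seen with 111 peaks. These are counts of letters in a list of open regions, and binding of OCT4 was not measured in it.

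**Figure D1:**
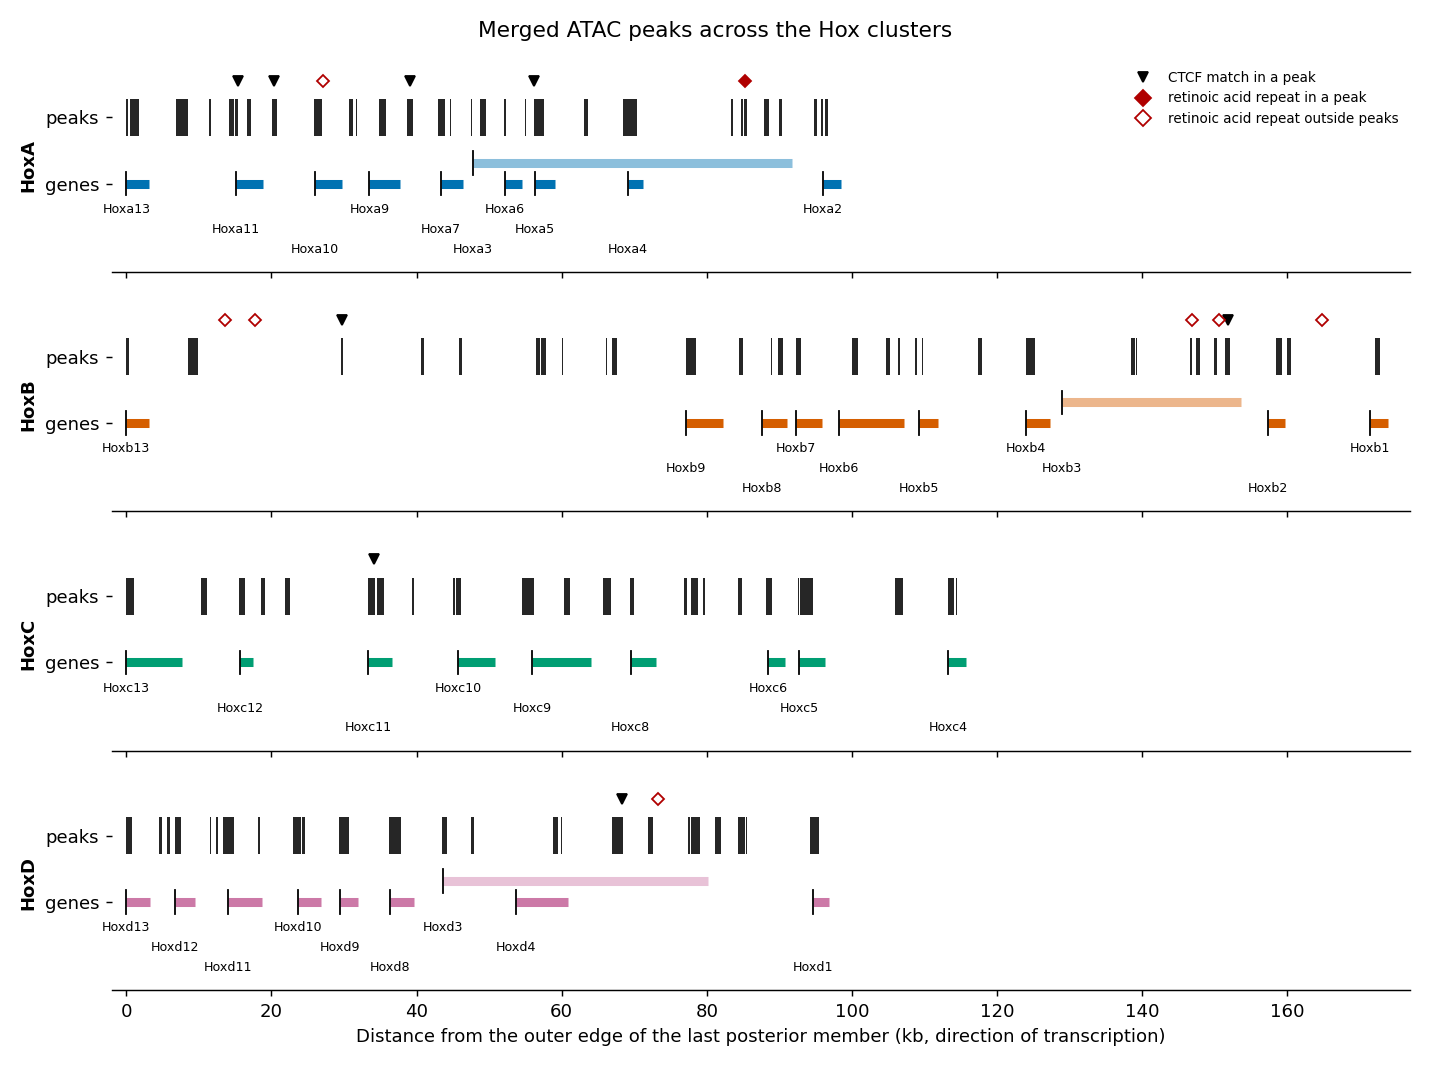
Listed ATAC peaks (dark blocks) and member genes (coloured bars from the APPRIS principal start, marked by a vertical line, to the gene's end) in the 4 clusters, against the distance in kb from the outer edge of the member with the highest number, in the direction of transcription. Triangles mark CTCF matches in peaks and diamonds retinoic acid repeats, filled where they lie in a peak. Genes over 20 kb from that start are drawn paler and higher. The 31 HoxA peaks crowd into 98.5 kb, while HoxB shows a stretch with few peaks between Hoxb13 and Hoxb9.

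The list gives no read depth and no height, and a peak called in 1 library counts like a peak called in all 16. A site open in few cells and a site open in all of them cannot be told apart in such bulk data, and the ES cell label could not be checked against marker levels. Within these limits, the clusters were dense in peaks. HoxA held 31 peaks in 98.5 kb, or 31.5 per 100 kb, and 19% of its bases were covered. HoxD held 24 peaks in 96.8 kb, or 24.8 per 100 kb with 18.4% covered, and HoxC 25 peaks in 116 kb, or 21.6 per 100 kb with 15.8% covered. HoxB was the sparsest, with 31 peaks in 174 kb, or 17.8 per 100 kb and 10.2% covered. Part of the low value of HoxB came from the 74.0 kb between Hoxb13 and Hoxb9, which held 9 peaks, and from Hoxb9 to Hoxb1 the density was 21.7 per 100 kb. Over the whole list the density was 3.87 peaks per 100 kb and 2.06% of bases were covered. When the genome was cut into 27268 tiles of 100 kb, 7 tiles (0.0257%) were at least as dense as HoxA, 23 (0.0843%) as HoxD, 74 (0.271%) as HoxC and 400 (1.47%) as HoxB. These are positions in a ranking of one list and not a test.

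The density fell off at the ends of the clusters, though not on every side. The 8 flanks of 100 kb held 71 peaks in all, 8.88 per 100 kb, and 4.81% of their bases were covered. The right flank of HoxD, beyond Hoxd1, held 1 peak, which lay at the start of the neighbouring gene Mtx2. The left flank of HoxD held 6 peaks, among them those of Evx2. In contrast, the left flank of HoxB, beyond Hoxb13, held 20 peaks, more per 100 kb than the cluster itself with 17.8. Its bases were covered less, to 8.39% beside 10.2% in the cluster. The right flank of HoxC, beyond Hoxc4, held 16 peaks. Peaks that cross the end of a cluster were counted on both sides.

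**Figure D2:**
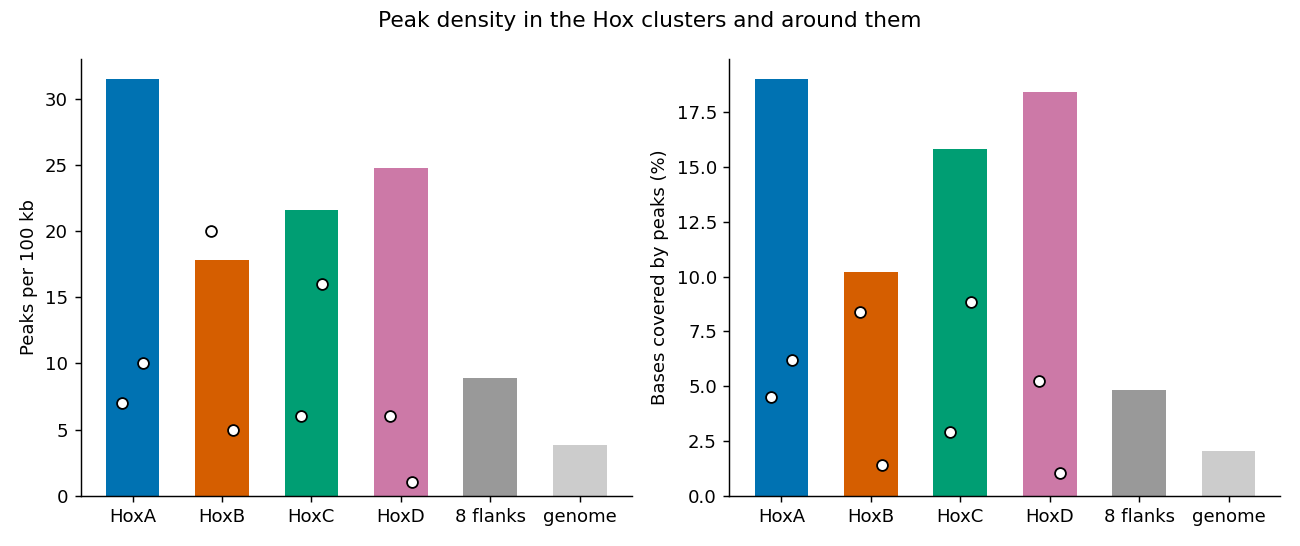
Peaks per 100 kb (left panel) and the percentage of bases covered by peaks (right panel) in each cluster, in the 8 flanks of 100 kb pooled and in the genome. Open circles give the left and right flank of each cluster in genome orientation, so that the left flank of HoxB at 20 and the right flank of HoxD at 1 peak per 100 kb can be seen as the extremes. Each bar is a value from 1 merged list and has no error bar.

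All 38 members had a peak in the gene or within 5000 bp, beside 81.0% of all protein-coding genes. Each of the 38 also overlapped a peak, a measure for which no share over all genes is given. The members are short genes, with a median length of 3496.5 bp beside 17425 bp over all genes. The members had a median of 4 peaks within 5000 bp (95% interval 4 to 5) and 2.63 per 10 kb of gene and window (2.22 to 3.01), beside 2 and 0.731 (0.719 to 0.745) over all genes. Members share peaks because they overlap one another, and these intervals treat genes as independent. The members with the most peaks were the long ones in each cluster, Hoxa3 with 17, Hoxc5 with 14, Hoxd3 with 10 and Hoxb3 with 8. The first 3 of these run across neighbouring Hox genes, and Hoxb3 does not. Hoxa4, Hoxb1, Hoxb4 and Hoxd1 had 1 peak each.

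Promoters were read in 2 ways, because the outermost 5′ end in the annotation can belong to a long transcript that begins at another Hox gene. For 9 of 38 members this end lay over 1000 bp from the start of the APPRIS principal transcript, the isoform the annotation ranks as the main protein, beside 13% of all genes. The largest shift was that of Hoxc5, whose outer end lay 46372 bp upstream at the promoter of Hoxc10. By the outermost 5′ end, 33 of 38 members (86.8%) had a peak within 1000 bp, beside 66.1% of all genes, and 25 had the end inside a peak, beside 58.8% of all genes. By the APPRIS start the count was 32 (84.2%), beside 65.9% of all genes, and 27 starts lay inside a peak, beside 59.4% of all genes. When any start of a protein-coding transcript was accepted, 37 members had a peak, beside 69.4% of all genes. Hoxb2, a gene of hindbrain patterning, was the exception, with the nearest peak 1133 bp from its APPRIS start.

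Most members with no peak at the promoter belonged to HoxB. By the outermost 5′ end all 10 HoxA members, all 9 HoxD members and 8 of 9 HoxC members had a peak within 1000 bp, but 6 of 10 in HoxB did. The nearest peak was 1199 bp from the start of Hoxb8, 1807 bp from that of Hoxb6, 2239 bp from that of Hoxb2 and 3817 bp from that of Hoxb3. Hoxb6 and Hoxb8 pattern the trunk, and Hoxb2 and Hoxb3 the hindbrain. Each of the 4 genes had a peak in its body, and the start of another protein-coding transcript lay inside a peak for Hoxb6, 379 bp from a peak for Hoxb8 and 527 bp for Hoxb3. Hoxc4 had no peak within 3204 bp of its outer end but had its APPRIS start in an 808 bp peak. By the APPRIS start Hoxa9 was 1299 bp and Hoxd4 was 5148 bp from the nearest peak, and the outer end of Hoxd4 shared the 658 bp peak of Hoxd3. Widths given below are those of the widest peak within 1000 bp, which need not hold the start: the start of Hoxa11 lay in a 461 bp peak beside its 672 bp one, and the APPRIS start of Hoxc5 in a 175 bp peak beside its 1812 bp one. A start with no listed peak was not measured as closed, since a weak site can go uncalled.

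The anterior members, of groups 1 to 4, act in the hindbrain and neck. Of 11, 8 had a peak within 1000 bp of the APPRIS start, and 5 starts lay inside it. Hoxa4 had the widest promoter peak of all members, 2014 bp (chr6:52190428-52192441), which held its start and was centred on its coding exon. Its paralogues had narrower peaks, 1258 bp at Hoxb4 and 808 bp at Hoxc4, and none within reach of the APPRIS start of Hoxd4. In group 1, the start of Hoxd1 lay inside a 1200 bp peak, whereas that of Hoxb1, needed for the identity of the fourth rhombomere, lay 629 bp from a 699 bp peak in the gene and inside a stretch of 11500 bp with no peak. Hoxa2 had its start 48 bp from a peak and a widest peak of 426 bp. In group 3, the peak nearest the starts of Hoxa3 was 209 bp wide, held its outer end and lay 67 bp from its APPRIS start, and the widest within reach of the APPRIS start, 847 bp, was 957 bp away, and Hoxd3 had a 658 bp peak.

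The central members, of groups 5 to 8, act in the thorax and upper trunk. Of 11, 9 had a peak within 1000 bp of the APPRIS start. Widths ran from 193 bp at Hoxa6 to 1812 bp at Hoxc5, which was the widest peak of HoxC (chr15:103013919-103015730). Paralogues again differed: in group 5, whose members include the lung and rib gene Hoxa5, the peaks were 1387 bp at Hoxa5, 1812 bp at Hoxc5 and 271 bp at Hoxb5. In group 7 the widths were 1031 bp at Hoxa7 and 677 bp at Hoxb7. In group 8 Hoxd8 lay in a 1626 bp peak and Hoxc8 in a 578 bp peak, and Hoxb8 had none. Hoxc6 had a 789 bp peak at its APPRIS start and a 1012 bp peak by its outer end.

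The posterior members, of groups 9 to 13, act in the lumbar and sacral trunk, the limbs and the genital tract. By the outermost 5′ end all 16 had a peak within 1000 bp, and by the APPRIS start 15 did, Hoxa9 being the exception. The median width at the APPRIS start was 1074 bp, beside 827.5 bp for the anterior and 789 bp for the central members that had a peak. In group 13, which includes the digit genes Hoxa13 and Hoxd13, the widths were 1796 bp at Hoxd13, 1746 bp at Hoxc13, 1095 bp at Hoxb13 and 645 bp at Hoxa13. The start of Hoxa13 lay in a separate 357 bp peak, so that 3 peaks overlapped this short gene. In group 12 the widths were 825 bp at Hoxd12 and 753 bp at Hoxc12. In group 11, whose members shape the kidney and forearm, they were 1548 bp at Hoxd11, 993 bp at Hoxc11 and 672 bp at Hoxa11. The outer end of Hoxd11 had only a 187 bp peak, the narrowest promoter peak of any member. In group 10, which sets the lumbar vertebrae, the widths were 1163 bp at Hoxa10, 1074 bp at Hoxd10 and 803 bp at Hoxc10. In group 9 they were 1462 bp at Hoxd9, 1337 bp at Hoxb9 and 984 bp at Hoxc9. HoxD had the widest median promoter peak of the clusters at 1331 bp, followed by 897 bp in HoxB, 847 bp in HoxA and 808 bp in HoxC, over between 6 and 9 members with a peak.

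**Figure D3:**
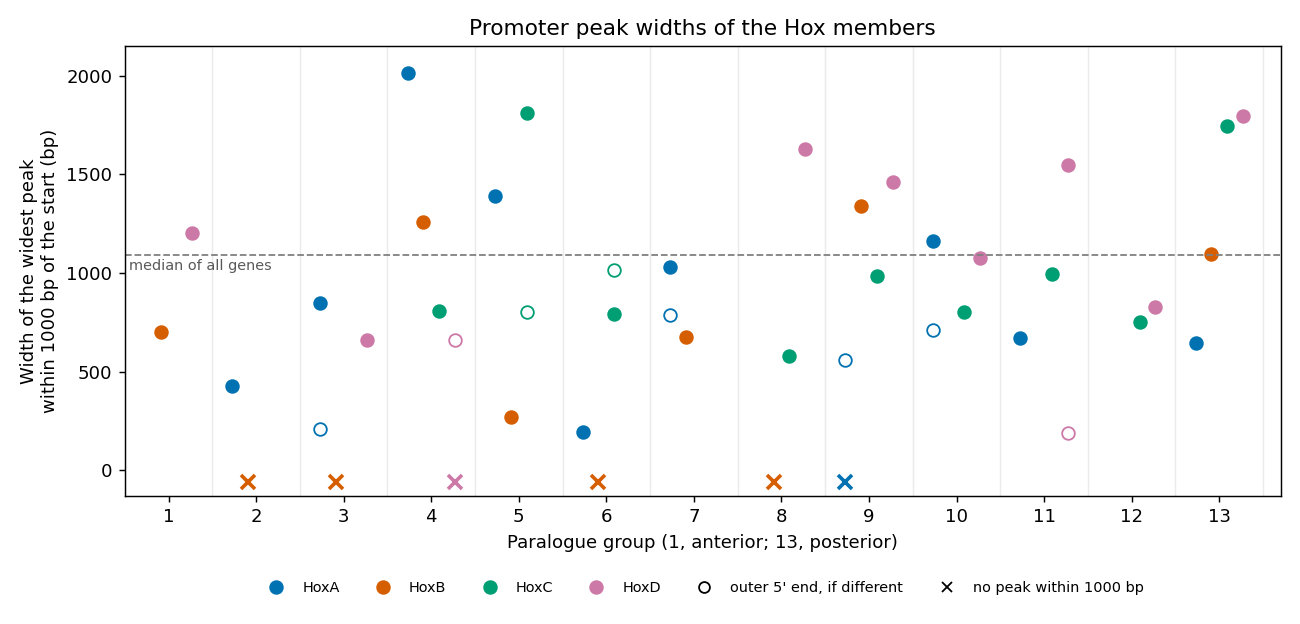
Width in bp of the widest peak within 1000 bp of the APPRIS principal start of each member (filled circles), by paralogue group from 1 (anterior) to 13 (posterior) and by cluster (colour). Open circles give the width at the outermost 5′ end where it differs, crosses mark members with no peak within 1000 bp of the APPRIS start, and the dashed line is the median over all genes, 1090 bp. Of the 6 crosses 4 are HoxB members, and widths of the same group spread widely between clusters.

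The promoter peaks of the members had a lower median width than those of all genes. The median promoter peak was 803 bp (95% interval 672 to 1074 bp, n = 33 members on 31 distinct peaks), beside 1090 bp (1083 to 1097 bp, n = 14498) over all genes. At the APPRIS start it was 988.5 bp (753 to 1258 bp, n = 32), beside 1090 bp, so that the interval then took in the value of all genes. A promoter was called CpG-rich when the 1001 bases around the outermost 5′ end had at least 50% GC and an observed over expected CpG ratio of at least 0.6. All 23 CpG-rich members had a peak, beside 99.3% of all CpG-rich genes. Among the 15 other members 10 (66.7%) had a peak, beside 39.6% of the other genes. CpG-rich members had a median peak of 785 bp (658 to 1337 bp, n = 23). All CpG-rich genes had one of 1180 bp (1172 to 1187 bp, n = 9669), which lies inside the interval of the members.

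The sequence just upstream of 3 HoxB and HoxD genes shows the range of base composition that peaks did and did not cover. The 250 bases before the RefSeq start are printed for Hoxd13, whose window was covered by a peak in full, for Hoxb8, whose window had no base in a peak and its centre 1325 bp from the nearest, and for Hoxd4, 5274 bp from the nearest. Each CG dinucleotide is in capitals.
Hoxd13, chr2:74667975-74668224, plus strand: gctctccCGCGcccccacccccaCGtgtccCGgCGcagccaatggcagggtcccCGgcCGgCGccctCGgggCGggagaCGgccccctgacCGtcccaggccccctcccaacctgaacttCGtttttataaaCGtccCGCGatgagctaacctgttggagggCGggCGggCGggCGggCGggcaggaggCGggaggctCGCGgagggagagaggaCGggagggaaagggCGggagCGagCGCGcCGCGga
Hoxb8, chr11:96281655-96281904, plus strand: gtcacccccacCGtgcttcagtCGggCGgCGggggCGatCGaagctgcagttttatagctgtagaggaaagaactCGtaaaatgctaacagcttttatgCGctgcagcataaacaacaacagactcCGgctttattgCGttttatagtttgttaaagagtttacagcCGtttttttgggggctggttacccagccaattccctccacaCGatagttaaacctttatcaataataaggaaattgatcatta
Hoxd4, chr2:74721728-74721977, plus strand: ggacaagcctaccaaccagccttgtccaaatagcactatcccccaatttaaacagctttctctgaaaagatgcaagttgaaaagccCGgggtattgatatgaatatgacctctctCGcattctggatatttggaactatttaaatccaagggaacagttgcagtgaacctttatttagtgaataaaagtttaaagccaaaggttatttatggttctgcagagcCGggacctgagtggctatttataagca

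The Hoxd13 window held 31 CG dinucleotides at 74.4% GC, the Hoxb8 window 12 at 44.4% and the Hoxd4 window 3 at 40.4%. RefSeq gave 24 promoters of 300 bases for 22 members, and their median number of CG dinucleotides was 14.5, beside 7 over 32851 promoters. Peaks covered 4 of the 24 in full, those of Hoxd1, Hoxd10, Hoxd13 and the inner promoter of Hoxd11. No base of a peak lay in 6, those of Hoxa7, Hoxa9, Hoxb1, Hoxb8, Hoxd4 and the outer promoter of Hoxd11. The promoters covered in full, all of HoxD, held between 22 and 37 CG dinucleotides, and those without a peak base between 4 and 13. Between these ends the number of CG dinucleotides and the coverage did not go together throughout, since the Hoxa13 promoter held the most, 45, and was covered to 73%, that of Hoxa6 held 26 and was covered to 46%, and that of Hoxa2 held 9 and was covered to 67.7%.

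The peaks themselves were wide and rich in CpG. The 111 cluster peaks had a median width of 614 bp (482 to 699 bp), beside 415 bp (412 to 418 bp) over the list, and 22 of them (19.8%) were wider than 1000 bp, beside 12.4%. More of them stood near starts, since 77 (69.4%) were within 1000 bp of an annotated start of any transcript, beside 25.1% of all peaks. Among peaks near a start, those of the clusters were the narrower, with a median of 658 bp (552 to 753 bp) beside 815 bp (807 to 824 bp). Among peaks away from starts their median was 532 bp (303 to 771 bp, n = 34), beside 352 bp (350 to 355 bp), which lies inside that interval. The median GC content was 58.8% (57.7 to 60.6%), beside 50.1% in the list and 57.4% in all peaks near a start, and the CpG ratio was 0.65 (0.614 to 0.711), beside 0.259 and 0.582. On average 7.34% of the bases of a cluster peak were soft-masked as repeats or low-complexity sequence, beside 16.8% in all peaks.

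**Figure D4:**
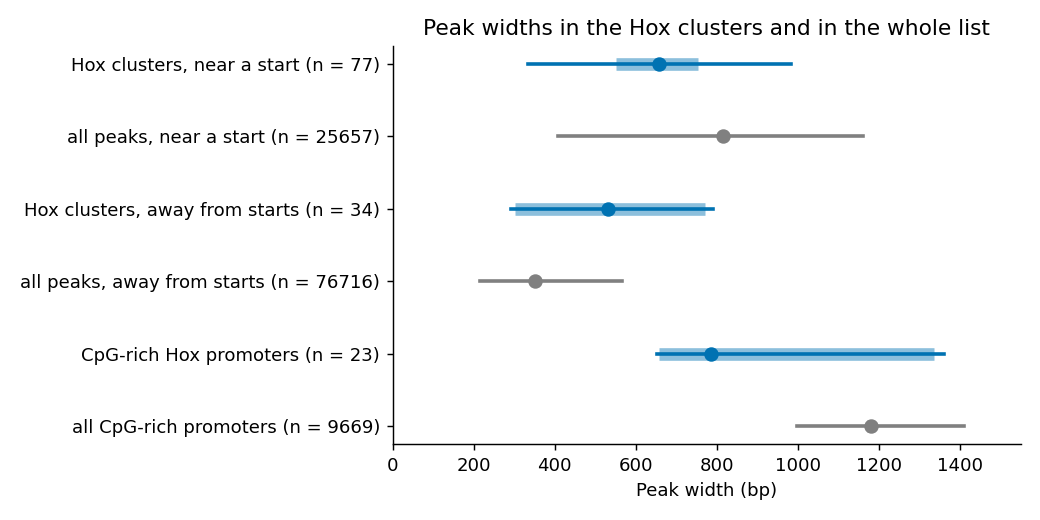
Median peak width in bp (points), its 95% interval (thick bars) and the quartiles (thin lines) for Hox clusters (blue) and the whole list (grey), for peaks within 1000 bp of any start, peaks farther away, and promoter peaks of CpG-rich genes. Hox peaks have a lower median than the list near starts (658 against 815 bp). Away from starts their median is higher (532 against 352 bp), but its interval takes in the value of the list.

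Peaks in the clusters often lay on the genes' coding sequence. The centre fell in a coding exon for 33 peaks (29.7%), beside 5.50% of all peaks. It fell in an untranslated exon for 11 (9.91%, beside 7.96%) and in a non-coding exon for 12 (10.8%, beside 3.86%). It fell in an intron for 38 (34.2%, beside 44.4%) and between genes for 17 (15.3%, beside 38.3%). Coding exons take up much of these short genes, and their share of the clusters' bases was not set against this. Among the 3 widest peaks of each cluster, 3 were away from any promoter. In HoxA a 1607 bp peak lay between Hoxa11 and Hoxa13 (chr6:52252385-52253991), 3086 bp from the nearest start. In HoxB the widest peak of the cluster, 1411 bp, lay between Hoxb13 and Hoxb9 (chr11:96202844-96204254), 2533 bp from the nearest start, and in HoxC a 1215 bp peak lay in the outer intron of Hoxc4 (chr15:103026983-103028197), 6198 bp from a start. The others stood at Hoxa4, Hoxa5, Hoxb9, Hoxb4, Hoxc5, Hoxc13, Hoxd13, Hoxd8 and Hoxd11.

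Between these peaks the clusters also held long stretches in which none was listed. The median distance between neighbouring peaks was 2970 bp, beside 7796 bp over the list, and 30 of 107 distances were over 5000 bp. The longest in HoxB was 19662 bp (chr11:96204255-96223916), next to the 1411 bp peak between Hoxb13 and Hoxb9. A stretch of 13217 bp held the start of Hoxb3. In HoxA 12908 bp (chr6:52177520-52190427) separated the peaks around the retinoic acid repeat from that of Hoxa4. In HoxC 11252 bp followed the wide peak of Hoxc5, and in HoxD 10866 bp (chr2:74716260-74727125) held the APPRIS start of Hoxd4 and the miRNA gene Mir10b.

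Among the non-coding genes inside the clusters, 21 of 38 had a peak within 1000 bp of the start and 19 overlapped a peak. A peak stood within 1000 bp of the start for 6 of 8 antisense genes and for 2 of 7 miRNA genes. No share over all non-coding genes stands beside these counts, so they cannot be read as high or low. The miRNAs of the clusters are known to repress Hox and other messages through their seed, bases 2 to 8. Mature sequences are printed from RefSeq with the seed in capitals, as they show which hairpins of different clusters give the same seed.
miR-10a-5p (HoxB, next to Hoxb4): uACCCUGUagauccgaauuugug
miR-10b-5p (HoxD, next to Hoxd4): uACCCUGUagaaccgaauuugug
miR-196a-5p (HoxB next to Hoxb9 and HoxC next to Hoxc9): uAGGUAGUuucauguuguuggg
miR-196b-5p (HoxA, next to Hoxa9): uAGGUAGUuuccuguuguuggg
miR-615-3p (HoxC, inside Hoxc5): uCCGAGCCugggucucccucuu

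Of the hairpins with a shared seed, both of the miR-10 family and both of miR-196a lay outside peaks, and that of miR-196b inside. Mir196b lay inside a 560 bp peak (chr6:52229612-52230171), the one nearest the outer end of Hoxa9, whereas the centres of the Mir196a-2 and Mir196a-1 hairpins were 2292 bp and 3294 bp from a peak. Those of the Mir10a and Mir10b hairpins were 1033 bp and 1023 bp from a peak. Mir615 lay inside the 1812 bp peak of Hoxc5. Of the long non-coding genes, the start of Haglr, between Hoxd3 and Hoxd1, was in a peak and the gene overlapped 4, whereas the start of Hotair, between Hoxc12 and Hoxc11, was 4006 bp from a peak and the gene overlapped none.

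Other homeobox genes and the genes that act on the Hox clusters had promoter peaks as well. Both homeobox genes joined to the clusters, Evx1 beside HoxA and Evx2 beside HoxD, had a peak within 1000 bp of the outermost 5′ end, 1007 bp and 996 bp wide. All 12 Dlx and Irx genes, homeobox genes that lie in small clusters of their own, had one as well, with a median width of 985 bp and 1.96 peaks per 10 kb, beside 2.63 for the Hox members. Of the 24 regulators and cofactors, such as the partner proteins Pbx and Meis, the Cdx factors, the retinoic acid receptors and enzymes and the activator Kmt2a, 22 had a peak, with a median width of 1284.5 bp. The exceptions were Cyp26b1, which degrades retinoic acid, and the receptor Rarb, 3310 bp and 26500 bp from a peak by the outer end, although the APPRIS start was inside a peak for Rarb and 6 bp from one for Cyp26b1. By the APPRIS start Meis2 and Pknox2 lacked one. These lists were compared by counts alone, beside 66.1% of all genes.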

How the data were processed

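ATAC-seq was performed on 20 libraries of ZHBTc4 cells. As the methods of the study and the processing notes state, the authors used STAR 2.6.1c and the mm10 build (GRCm38, release 87), took out duplicates with Picard, kept autosomes and sex chromosomes, called peaks with MACS 2.1.1.20160309 on read pairs and joined those of all dox libraries through BEDTools. In the deposited list each peak has a chromosome, a start and an end as its 3 columns, with no signal or other value for any library, so the limma fit set down for the constructs was not run and depth is unknown. Starts were counted from 1 here. The study names a filter on peaks over 5000 bp, and 7 such peaks were in the list, 0 of them in the clusters. It was not established whether regions called in input or blacklisted were removed, or whether the list holds every merged peak.

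Genes and starts came from GENCODE M21 and sequences from the GRCm38.p6 genome and RefSeq. Promoter peaks were the widest within 1000 bp of a start. Proximal peaks lay within 1000 bp of any annotated start. Intervals are 95% Wilson intervals for shares and order-statistic intervals for medians, take peaks or genes as independent, and reflect counting error alone because 1 list has no replicates. A count of 0 was taken to allow 3 counts. The members and lists were chosen with earlier results of these data known. Named in full were members without a promoter peak, and in each cluster the widest and narrowest promoter peak, the member with the most peaks, the 3 widest peaks, the longest stretch without a peak and motif matches in peaks. The functions were tested on simulated data. Python 3.11.15, numpy 2.4.6, pandas 2.3.3 and scipy 1.17.1 were used.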

Additional observations from a re-analysis of the deposited data

How the results depend on the processing

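Of 52 recomputed values, 48 stayed within 1.5 times the count, within the interval of the share or within the spread of widths, and 4 moved. Leaving out peaks under 300 bp raised the median width of cluster peaks from 614 to 717 bp. The share of cluster peaks with a CTCF match went from 7.21% to 0% when no mismatch was allowed and to 31.5% with up to 2 mismatches. With the hexamers AGGTCA and AGTTCA alone, 0 repeats lay in a cluster peak in place of 1. These follow from the construction of each setting. The number of members with a promoter peak ran from 29 (peaks of at least 300 bp) to 37 (any protein-coding start), and was 31 within 500 bp and 35 within 2000 bp of the outer 5′ end. The APPRIS start and the HoxB span from Hoxb9 to Hoxb1 were chosen after seeing the data.

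No paired analysis was possible because no value of any replicate is given in the merged list. For the same reason the fit of MD-OCT4 against MD*-OCT4 with or without the replicate block, and without either replicate, was not run. The read depth behind each peak is unknown.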
